A study of Mus musculus with 6 samples.

Results

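The genes described here encode the subunits of oxidative phosphorylation: the electron transfer complexes I to IV and the ATP synthase, complex V. They were taken by name from the deposited gene table as protein-coding rows called Sdha to Sdhd or Cyc1, or starting with Nduf, Uqcr, Cox4 to Cox8, Atp5, mt-Nd, mt-Co, mt-Cytb or mt-Atp. Assembly factors with Ndufaf names and rows with under 10 counts over the 6 libraries were left out. The names matched 99 rows, 5 of these fell under the minimum, and 94 genes of the 32061 in the table remained. Cox6a2, Cox7b2 and Cox8c had 0 counts in all libraries, Cox4i2 had 1 and Cox8b had 3, whereas Cox7a1 with 108 and Ndufa4l2 with 177 counts were the lowest that entered. Complex I had 43 members, complex II 4, complex III 10, complex IV 18 and complex V 19. Of the 94, 81 are nuclear genes and 13 lie on the mitochondrial genome. All 94 had enough counts to be tested.

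The series compared polyadenylated RNA of hepatocytes, the main metabolic cell type of liver, obtained with collagenase and a density gradient from mice of 10 to 12 weeks. The 3 samples called senescent came from AhCre+Mdm2fl/fl mice, in which Cre recombinase, driven by a promoter responsive to the aryl hydrocarbon receptor, can delete the conditional Mdm2 alleles. The 3 samples called healthy came from AhCre- mice, and the sources used here do not give their Mdm2 alleles. Mice of both groups received β-naphthoflavone, which induces AhCre, in a dose of 20 mg/kg for 48 h. Effects of Cre itself and of the loss of Mdm2 therefore cannot be told apart. The labels do not say whether samples are different animals, so the p-values rest on a spread between samples that may be technical.

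The libraries held 28799392 to 33267299 counts each. Levels are given as CPM, counts over the library size scaled by the TMM method and set to the usual CPM unit, and each group has n = 3 libraries. Fold changes are senescent over healthy, on the log2 scale ± SE. A gene was called at a Benjamini-Hochberg adjusted p under 0.05 over all 12949 tested genes in edgeR's quasi-likelihood test, to which every adjusted p below belongs. Mdm2, a p53 target whose count spans the whole gene and does not check the deletion, had 464.6, 462.8 and 501.3 CPM in the senescent and 19.03, 22.7 and 21.99 CPM in the healthy libraries. The table's column for healthy replicate 2 differs in 1 letter from that sample's code in the labels, so values without this library are given where they matter. The 12 hepatocyte markers summed to 77810 to 92566 CPM in senescent and 128725 to 148117 CPM in healthy libraries, and none of them was at 0. Alb made up most of each of these sums.

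Oxidative phosphorylation takes place in the inner mitochondrial membrane. Complexes I and II pass electrons from NADH and succinate to ubiquinone, complex III passes them on to cytochrome c, and complex IV hands them to oxygen. Complexes I, III and IV pump protons, and complex V lets the protons back to make ATP. All complexes except II combine subunits from both genomes, so that nuclear and mitochondrial messages are needed together. Hepatocytes are rich in mitochondria and use this ATP for gluconeogenesis, urea synthesis and protein export.

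Nuclear subunit messages were lower in the senescent libraries across all 5 complexes, while the mitochondrially encoded ones were mostly not called. In bulk RNA, fewer hepatocytes in a sample and less RNA per cell cannot be told apart. Of the 94 members, 61 fell (64.9%) and 3 rose (3.19%), and 30 were not called. Among all tested genes 20.7% fell and 20.4% rose. The members' median log2 fold change was -0.60, against 0.01 for all tested genes, and 81 of the 94 had a negative value. In 69 members every senescent library was below every healthy one, and in 3 every senescent library was above. Over all tested genes these shares were 27.2% and 26.8%. Most changes were moderate: 6 members fell at least 2-fold (background 6.94%) and 2 rose at least 2-fold (background 10.4%). Without the healthy library of uncertain column, 55 members fell and 3 rose, while 15.8% of all tested genes fell and 15.8% rose.

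Scaling matters for these counts. With total library size instead of TMM scaling, 30 members fell and 6 rose, with a median of -0.29, while the median of all genes moved to 0.33 and the calls over all genes to 4861 higher and 1285 lower, from 2644 and 2680. The distance between the members' median and that of all genes was -0.62 under both scalings. A change of scaling moves all genes nearly alike, so this distance could hardly have changed. The members are also short, with a median principal transcript of 863 bases against 2851 for tested genes. With a trend of each library on that length removed, an alternative chosen after seeing the data, 40 members fell and 6 rose, with a median of -0.25. In that fit 19.5% of all tested genes fell and 19.7% rose. The distance from the median of all genes was -0.25 there, and -0.33 with a trend on exonic length removed. The calls of 26 falling and of all 3 rising members held in each of 18 alternative fits at the same threshold. Healthy replicate 1 was the highest healthy library in 82 of the 94 members, and without it 55 fell and 4 rose, with a median of -0.45. In that fit 18.6% of all tested genes fell and 18.6% rose. The code of healthy replicate 1 ends in a, those of the other libraries in B.

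**Figure D1:**
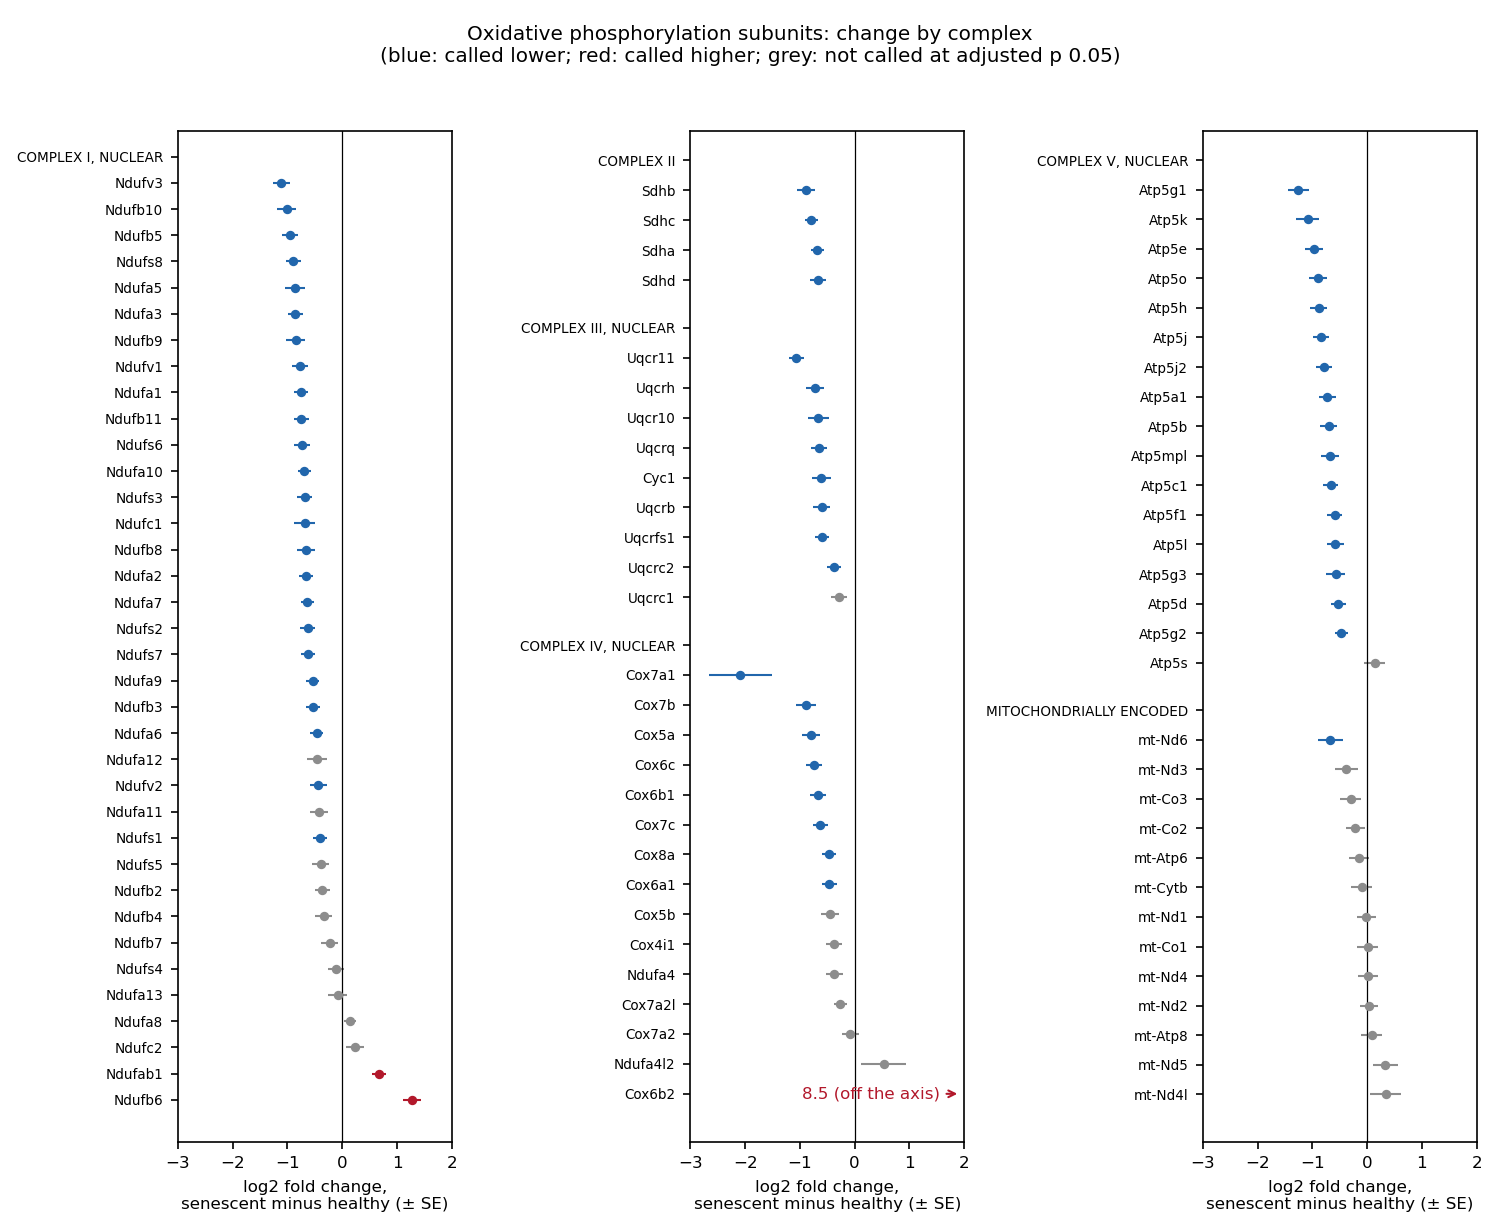
Log2 fold change (senescent minus healthy, horizontal axis, bars: SE) of each of the 94 subunit genes, arranged by complex and genome, blue where called lower, red where called higher and grey where not called. Most nuclear genes lie left of 0, the mitochondrially encoded genes lie around 0, and Cox6b2, at 8.475, is off the axis.

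Complex I is the largest of the complexes, and most of its nuclear genes fell. Of 36 nuclear members, 24 fell (66.7%), 2 rose (5.56%) and 10 were not called, with a median log2 fold change of -0.63. Of all tested genes 20.7% fell and 20.4% rose. The 7 nuclear core subunits, which carry the flavin and the iron-sulfur clusters or line the electron path, all fell, with a median of -0.63. Of 29 accessory subunits, 17 fell and 2 rose, and their median was -0.54.

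Ndufv3, an accessory subunit of the NADH-oxidising module, had 36.7, 32.3 and 27.96 CPM in senescent and 78.9, 72.96 and 57.7 CPM in healthy libraries. The groups did not overlap, and the log2 fold change was -1.11 ± 0.16 (adjusted p = 9.4e-04). Ndufb5, an accessory subunit of the membrane arm, had 36.5, 37.4 and 31.8 CPM against 82.6, 62.5 and 59.9 CPM. All senescent libraries were lower, with a log2 fold change of -0.96 ± 0.15 (adjusted p = 0.0016). Ndufs8, a core subunit that holds iron-sulfur clusters, had 46.3, 42.0 and 39.4 CPM against 88.0, 83.7 and 65.1 CPM, again apart, with -0.89 ± 0.14 (adjusted p = 0.0017). The other core subunits ranged from -0.77 for Ndufv1, which binds NADH, to -0.41 for Ndufs1. The call of Ndufs1 was lost with total library size and without healthy replicate 1 (-0.31) or 3 (-0.41) or any 1 of the senescent replicates (-0.40 to -0.34). That of Ndufv2, an iron-sulfur subunit, was lost in 10 of the 18 alternative fits. With total library size, Ndufs8 and Ndufv1 were the core subunits that stayed called. Ndufb10 also fell at least 2-fold, from 119.7 ± 29.3 to 59.4 ± 4.18 CPM (SD). The 10 members not called had log2 fold changes from -0.45 (Ndufa12) to 0.23 (Ndufc2).

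Both complex I genes that rose are accessory. Ndufb6, a subunit of the membrane arm, had 138.5, 150.6 and 141.9 CPM in senescent and 73.9, 56.3 and 47.2 CPM in healthy libraries. Every senescent library was above 138 CPM and every healthy one under 74, and the log2 fold change was 1.28 ± 0.17 (adjusted p = 6.4e-04). Ndufab1, the mitochondrial acyl carrier protein, which also serves fatty acid and lipoate synthesis, had 102.6, 112.1 and 106.0 CPM against 79.3, 62.2 and 59.9 CPM. These groups were apart as well, with 0.67 ± 0.13 (adjusted p = 0.0049).

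The bases before the start sites of the genes that rose are shown because they went against the other members, from RefSeq's table on GRCm38.p6, on the strand of the gene and free of annotated exons. The Ndufb6 stretch is chr4:40279422-40279671 and the Ndufab1 stretch chr7:122101887-122102098, both on the minus strand, the latter ending 38 bases before RefSeq's start. The Cox6b2 stretch is chr7:4753095-4753225, also on the minus strand, and begins just after the last exon of the neighbouring gene Fam71e2. No capitals appear in these 3 because none of the motifs searched below was found in them.
Ndufb6: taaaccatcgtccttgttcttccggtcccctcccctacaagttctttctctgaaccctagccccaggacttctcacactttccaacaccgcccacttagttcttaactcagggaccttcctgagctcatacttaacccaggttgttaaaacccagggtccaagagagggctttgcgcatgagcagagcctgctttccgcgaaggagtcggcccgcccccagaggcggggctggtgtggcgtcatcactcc
Ndufab1: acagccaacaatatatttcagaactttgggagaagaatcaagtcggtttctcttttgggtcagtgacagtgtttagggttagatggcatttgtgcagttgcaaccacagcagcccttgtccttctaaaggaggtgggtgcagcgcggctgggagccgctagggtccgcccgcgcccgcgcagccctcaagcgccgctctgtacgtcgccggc
Cox6b2: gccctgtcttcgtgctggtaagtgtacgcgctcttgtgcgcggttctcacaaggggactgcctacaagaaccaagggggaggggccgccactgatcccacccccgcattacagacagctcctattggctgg

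Searched on both strands in the 250 bases before the start were GCGC followed by any base and TGCGC, known for the regulator NRF1, then CCGGAAGT for ETS factors, AAGATGGC for YY1, and the p53 half-site. RefSeq had a window for 65 of the 94 members, and no pair of motifs overlaps in the windows printed. The NRF1 letters were found in 13 of the 65 members (20.0%), in 9.25% of 9855 tested genes and in 4.23% of all 27025 genes with a window. They were in 9 of 47 members that fell, 4 of 15 not called and 0 of 3 that rose. The ETS letters were in 4.62% of members and 6.74% of tested genes, the YY1 letters in 1.54% and 2.45%, and the p53 half-site in 4.62% and 7.31%. Some windows held more than 1 match. Sdha had NRF1 letters 98, 55 and 10 bases before the start and Cox6a1 162 and 117 bases before it. Atp5h had them 141 bases before, and ETS letters 39 bases before. Stretches of these 3 members that fell show 1 NRF1 match each in capitals, for Sdha that at 55 and for Cox6a1 that at 162 bases. They are Atp5h at chr11:115420036-115420075, Cox6a1 at chr5:115349096-115349129 and Sdha at chr13:74350281-74350308, all on the minus strand.
Atp5h: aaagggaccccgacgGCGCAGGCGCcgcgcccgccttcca
Cox6a1: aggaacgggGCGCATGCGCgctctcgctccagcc
Sdha: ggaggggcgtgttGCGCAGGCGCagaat

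Complex II, succinate dehydrogenase, links the citric acid cycle to the chain and is encoded by nuclear genes alone. All 4 of its genes fell, with a median of -0.74. Sdhc, a membrane anchor, had 109.1, 113.1 and 98.8 CPM in senescent and 205.4, 171.1 and 179.9 CPM in healthy libraries, a log2 fold change of -0.79 ± 0.12 (adjusted p = 0.0013). Sdha, the flavoprotein that oxidises succinate, had 337.8, 351.8 and 313.4 CPM against 564.4, 517.1 and 528.7 CPM, with -0.68 ± 0.12 (adjusted p = 0.0027). Sdhb, the iron-sulfur subunit, had 90.4, 94.4 and 87.5 CPM against 210.6, 148.8 and 144.8 CPM, with -0.89 ± 0.16 (adjusted p = 0.0031). In each of these genes the highest senescent library lay below the lowest healthy one. Sdhd, the other anchor, fell by 0.67 (adjusted p = 0.0089), and its call was lost with total library size.

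Complex III showed the same direction in all 9 nuclear members, of which 8 fell, with a median of -0.61. Uqcr11, a small accessory subunit, had 63.8, 61.9 and 54.8 CPM in senescent and 144.6, 126.4 and 106.0 CPM in healthy libraries. The groups were apart, and the log2 fold change was -1.06 ± 0.14 (adjusted p = 6.9e-04). Uqcrq had 180.7, 172.2 and 151.3 CPM against 291.2, 275.1 and 225.6 CPM, with -0.65 ± 0.14 (adjusted p = 0.0068). Uqcrfs1, the Rieske iron-sulfur protein, had 111.3, 112.9 and 102.0 CPM against 193.2, 153.7 and 146.5 CPM, with -0.60 ± 0.13 (adjusted p = 0.0085). Senescent libraries were lower throughout, but both Uqcrq (-0.34) and Uqcrfs1 (-0.29) missed the threshold with total library size. Cyc1, cytochrome c1, the other nuclear core subunit, fell from 203.5 ± 47.2 to 133.2 ± 10.5 CPM (adjusted p = 0.022), though not without senescent replicate 2 (-0.59) or 3 (-0.51) or with total library size (-0.30). Uqcrc1, a large subunit on the matrix side, was the member not called, at -0.29 (adjusted p = 0.14), and its sign turned with total library size (0.018).

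In complex IV, cytochrome c oxidase, 8 of 15 nuclear members fell (53.3%), 1 rose (6.67%) and 6 were not called. Their median was -0.47. Of all tested genes 20.7% fell and 20.4% rose. Cox6c had 103.8, 100.7 and 97.3 CPM in senescent and 206.7, 156.1 and 144.7 CPM in healthy libraries, with -0.75 ± 0.15 (adjusted p = 0.0049). Cox5a had 85.2, 84.1 and 73.2 CPM against 174.3, 130.6 and 117.5 CPM, with -0.80 ± 0.16 (adjusted p = 0.0052). Cox7b had 71.98, 75.2 and 63.1 CPM against 170.7, 113.1 and 107.1 CPM, with -0.89 ± 0.19 (adjusted p = 0.0061). These 3 encode supernumerary subunits around the catalytic core, and each was apart, with healthy replicate 1 the highest library. Cox4i1, the ubiquitous form of subunit IV and the most abundant nuclear message of the complex per length, had 336.6, 320.7 and 288.6 CPM against 468.6, 420.8 and 337.8 CPM. Its groups did not overlap, yet at -0.38 ± 0.15 it was not called (adjusted p = 0.079); without healthy replicate 3 it was called, at -0.50.

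Several complex IV subunits, and the c subunit of complex V, exist in forms known from different tissues. Cox6a2, known from muscle, and Cox8c and Cox7b2, known from testis, had 0 counts. A count of 0 allows up to 3 counts, or 0.0837 to 0.117 CPM, in a library, and such limits cover counting error only. Cox4i2, known from lung, had 1 count in all, and Cox8b, known from muscle, had 3. Cox7a1, the muscle form of subunit VIIa, had 6, 14 and 4 counts in senescent and 48, 17 and 19 counts in healthy libraries. These groups were apart at very low levels, under 2 CPM, with -2.09 ± 0.57 (adjusted p = 0.02). The call was lost without senescent replicate 1 (-1.87) or 3 (-1.73) and without healthy replicate 1 (-1.53). With the principal transcript length trend removed it was lost as well (-1.55), and with a filter at a mean of 1 CPM the gene was not tested.

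The liver forms of the same subunits differed in how far they moved. Cox7a2 had 99.7, 96.5 and 89.7 CPM in senescent and 122.0, 98.4 and 81.1 CPM in healthy libraries, with overlapping groups (-0.08 ± 0.15, adjusted p = 0.71). Cox7a2l, related to Cox7a2 and known from supercomplexes, had 80.0, 83.4 and 78.2 CPM against 89.9, 109.6 and 90.0 CPM (-0.26 ± 0.12, adjusted p = 0.11). Neither VIIa form was called, but with the principal transcript length trend removed Cox7a2 was called higher, at 0.33 (adjusted p = 0.041). Cox6a1 had 134.5, 138.6 and 127.8 CPM against 212.9, 186.7 and 154.2 CPM (-0.47 ± 0.14, adjusted p = 0.027). Cox8a had 100.4, 109.2 and 95.2 CPM against 163.7, 131.2 and 127.2 CPM (-0.47 ± 0.13, adjusted p = 0.022). Both fell with groups apart, but Cox6a1 missed the threshold without any 1 of senescent replicates 1, 2 and 3 or of healthy replicates 1 and 2 (-0.46 to -0.36). Cox8a missed it without any 1 of the senescent replicates (-0.48 to -0.39). With total library size both calls were lost as well (-0.16 and -0.16), and with a length trend removed both were near 0.

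Ndufa4, once assigned to complex I and now placed in complex IV, had 183.2, 191.3 and 183.4 CPM in senescent and 285.5, 236.7 and 198.3 CPM in healthy libraries. The groups were apart but the gene was not called (-0.37 ± 0.15, adjusted p = 0.076), except without healthy replicate 3 (-0.49) or with a trend on GC content removed (-0.49). Ndufa4l2, a relative known as induced in low oxygen, had 25, 41 and 48 counts against 25, 26 and 12 counts, and it was not called (0.53 ± 0.41, adjusted p = 0.33). It made up at most 0.752% of the counts of the pair in any library.

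The widest change of any member was in subunit VIb. Cox6b2, the form known from testis (ENSMUSG00000051811; GRCm38 chromosome 7, 4751792 to 4753094, minus strand), had 1651, 1569 and 1385 counts in senescent libraries and 4, 4 and 2 counts in healthy ones. In CPM these were 46.1, 45.7 and 40.1 against 0.135, 0.156 and 0.0707. The 4605 counts in the senescent group against 10 in the healthy group gave a scaled ratio of 368, with a 95% counting interval of 199.9 to 767.9. The fitted log2 fold change was 8.475 (adjusted p = 2.7e-07). Its SE by the F statistic, 0.21, understates the error, since counting error from the 10 healthy counts alone exceeds it. Cox6b1, the general form, had 111.6, 112.9 and 98.1 CPM in senescent and 207.6, 157.4 and 147.1 CPM in healthy libraries, and it fell by 0.67 (adjusted p = 0.009). The call of Cox6b1 was lost with total library size (-0.36) and with either length trend removed (-0.22 and -0.24).

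Per transcript length, Cox6b2 made up 30.35%, 29.96% and 30.15% of the VIb messages in senescent replicates 1, 2 and 3. In the healthy libraries its share was 0.0685%, 0.104% and 0.0507%. The 3 senescent shares differed among themselves by less than 1 percentage point. On the same scale, CPM per kilobase, mean levels were 75.1 for Cox6b2 and 174.0 for Cox6b1 in senescent cells, against 0.206 and 276.3 in healthy ones. Among striated muscle and brown fat markers Myh4, Myh6 and Ucp1 were at 0 counts in all libraries, and the 7 listed summed to at most 0.261 CPM. No list of testis or germ cell markers was examined.

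**Figure D2:**
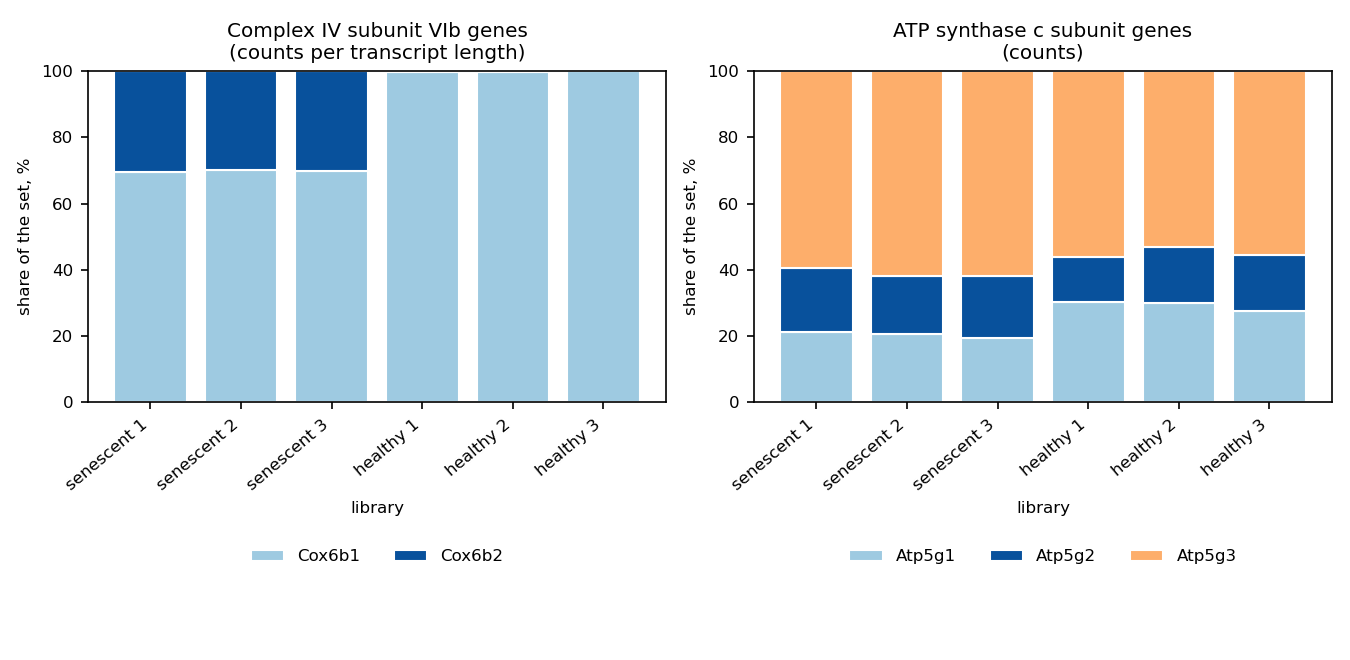
Share (%, vertical axis) of each gene in the messages of complex IV subunit VIb (left, counts per transcript length) and of the ATP synthase c subunit (right, counts) in each of the 6 libraries. Cox6b2 takes 29.96% to 30.35% of VIb messages in senescent and at most 0.104% in healthy libraries, and Atp5g1 takes 19.47% to 21.08% against 27.68% to 30.25%.

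Reads from neighbouring or overlapping genes bear on the members that rose, since the sources used here do not give the strand setting of the counting. Beside Cox6b2, Kmt5c, 4278 bases away, rose by 0.48 ± 0.15 (adjusted p = 0.035). Fam71e2, 132 bases away on the same strand, had 4, 5 and 3 counts in senescent and 0 in healthy libraries and was not tested. Ndufb6 shares 257 exonic bases, 39.0% of its own, with Smim27 on the opposite strand. Smim27 had 456 counts in all, against 20013 for Ndufb6, and went the other way (-1.14 ± 0.26, adjusted p = 0.0094). The neighbours of Ndufab1, Ubfd1 (0.12, adjusted p = 0.69) and Palb2 (0.06, adjusted p = 0.92), were not called.

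**Figure D3:**
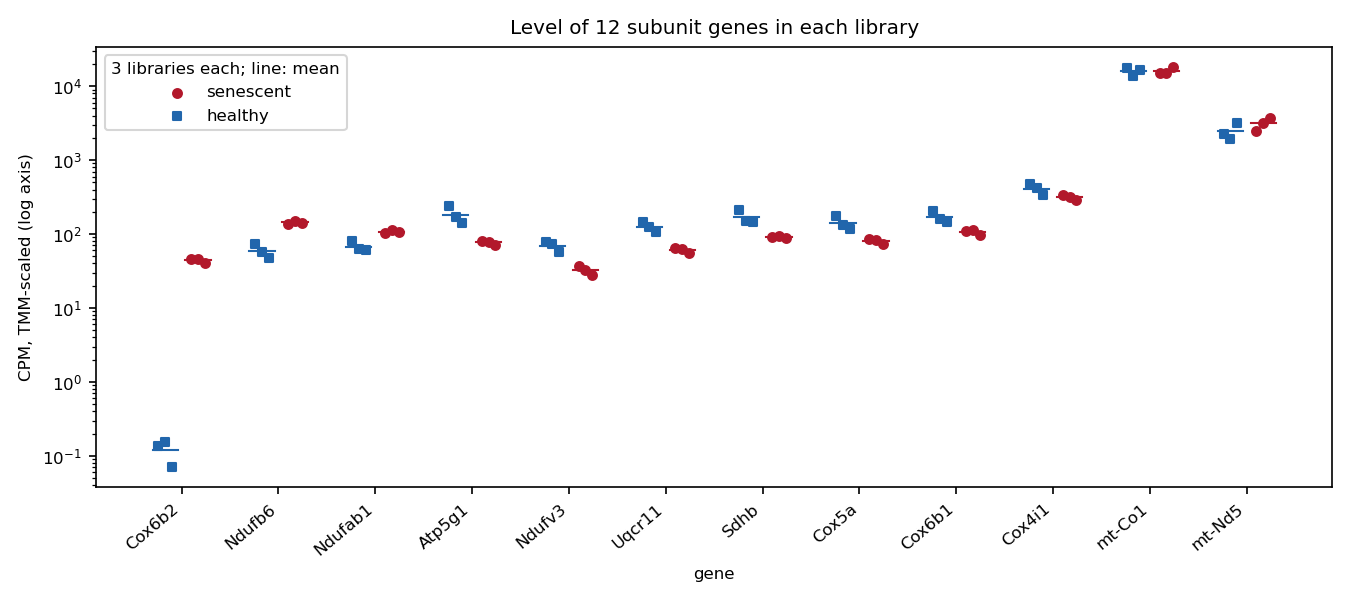
Level (CPM, log axis) of 12 subunit genes in each of the 3 senescent (red circles) and 3 healthy (blue squares) libraries, with a line at each mean. Cox6b2 lies between 40.1 and 46.1 CPM in senescent and at or below 0.156 CPM in healthy libraries, Ndufb6 and Ndufab1 are higher in every senescent library, and mt-Co1 and mt-Nd5 overlap.

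Complex V, the ATP synthase, fell in nearly all of its nuclear genes. Of 17 nuclear members, 16 fell and none rose, with a median of -0.70. The 5 genes of the F1 head, where ATP is made, all fell, as did the 3 genes of the c-ring, the rotor that protons drive. Of 9 genes of the stator and membrane part, 8 fell. The remaining one, Atp5s, named a coupling factor and found at under 5 CPM in every library, was not called (0.14, adjusted p = 0.60).

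In the head, Atp5e (epsilon) had 73.1, 68.2 and 62.9 CPM in senescent and 160.3, 133.3 and 104.7 CPM in healthy libraries, with -0.96 ± 0.16 (adjusted p = 0.0023). The catalytic beta subunit Atp5b, the most abundant nuclear member per length, fell from 1260 ± 211.9 to 775.5 ± 36.9 CPM (adjusted p = 0.0084). The alpha subunit Atp5a1 fell from 946.0 ± 157.7 to 573.0 ± 34.5 CPM (adjusted p = 0.007). With total library size, Atp5a1 and Atp5e were the head genes that stayed called, while Atp5b (-0.39), Atp5c1 (-0.36) and Atp5d (-0.21) were not. Atp5d, the delta subunit, also missed the threshold with the exonic length trend removed (-0.33) and when healthy replicate 2 (-0.52), senescent replicate 2 (-0.49) or senescent replicate 3 (-0.44) was left out. In the stator, Atp5j had 99.3, 96.4 and 89.4 CPM against 203.6, 165.5 and 142.5 CPM, with -0.84 ± 0.15 (adjusted p = 0.0026). Atp5k, a membrane subunit known from the dimer of the enzyme, fell by 1.09 (adjusted p = 0.0042), from 86.0 ± 26.96 to 40.5 ± 3.97 CPM. In all of these the senescent libraries lay below the healthy ones.

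The 3 c-subunit genes encode the same mature protein behind different import signals. Atp5g1, known as the form that follows metabolic demand, had 81.1, 79.1 and 70.4 CPM in senescent and 236.4, 172.4 and 141.7 CPM in healthy libraries. It was the strongest fall among members above 10 CPM, at -1.26 ± 0.19 (adjusted p = 0.0012). Atp5g2 had 74.2, 67.6 and 67.3 CPM against 107.3, 96.8 and 85.2 CPM (-0.47 ± 0.12, adjusted p = 0.015). Atp5g3 had 229.4, 238.5 and 224.1 CPM against 437.9, 303.9 and 284.9 CPM (-0.57 ± 0.17, adjusted p = 0.03). Groups were apart for all 3, but the calls of Atp5g2 and Atp5g3 were lost with total library size (-0.16 and -0.26), with the exonic (-0.24 and -0.41) or the principal transcript length trend removed (-0.10 and -0.18), and without senescent replicate 2 (-0.41 and -0.55) or 3 (-0.40 and -0.51), that of Atp5g3 also without senescent replicate 1 (-0.54). Atp5g1 took 21.08%, 20.54% and 19.47% of the c-subunit counts in senescent and 30.25%, 30.09% and 27.68% in healthy libraries. The share of Atp5g3 was 59.62% to 61.94% against 53.03% to 56.02%, and no difference in share was tested.

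Most of the 13 mitochondrially encoded messages were not called. Of these, 1 fell, none rose and 12 were not called, with a median log2 fold change of -0.01. The sign was negative in 7 of the 13, and in 11 after removal of the GC trend or when senescent replicate 3 or healthy replicate 2 was left out. It was negative in 2 with total library size and in 1 with either length trend removed. The difference between nuclear and mitochondrial members was not tested. These genes are made as long polycistronic transcripts by a dedicated polymerase, and they supply the proton-pumping core of complex I, cytochrome b, the catalytic core of complex IV and the channel side of complex V. Per length, 12 of the 13 exceeded every nuclear member, from 1362 CPM per kilobase for mt-Nd5 to 10345 for mt-Co1 in healthy cells, against 657.5 for Atp5b.

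The message of mt-Co1, the catalytic subunit of complex IV, had 15043, 15055 and 18176 CPM in senescent and 17498, 13867 and 16583 CPM in healthy libraries (0.01 ± 0.19, adjusted p = 0.97). mt-Atp6 had 5793, 5510 and 6770 CPM against 7516, 5691 and 6733 CPM (-0.14 ± 0.18, adjusted p = 0.56). In both the groups overlapped. mt-Co3 stood at -0.30 (adjusted p = 0.24), mt-Co2 at -0.21 (0.36) and mt-Cytb at -0.10 (0.69), and the signs of these 3 and of mt-Atp6 turned positive with total library size or with a length trend removed. At the other end, mt-Nd5 stood at 0.33 (adjusted p = 0.28) and mt-Nd4l at 0.34 (0.36). Without healthy replicate 3, mt-Nd4l was called higher, at 0.70 (adjusted p = 0.038), and with other libraries left out it stood at 0.17 to 0.52. With 1 library left out mt-Nd5 stood at 0.18 to 0.56 and was not called, and with total library size it was called higher, just past the threshold, at 0.64.

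Only mt-Nd6 was called, with 47.3, 49.7 and 59.1 CPM in senescent and 65.6, 66.3 and 116.5 CPM in healthy libraries (-0.67 ± 0.23, adjusted p = 0.044). It is the sole member on the light strand and is known to carry little poly(A), in libraries selected for poly(A). Healthy replicate 3 was far above the other healthy libraries, and without it the gene was not called (-0.35). The call was also lost without any 1 of the senescent replicates (-0.74 to -0.59), and with total library size, limma-voom or a length trend removed. It shares 14 exonic bases with mt-Nd5 on the opposite strand, and mt-Atp8 and mt-Nd4l overlap mt-Atp6 and mt-Nd4 on the same strand, so the split of reads within these pairs is uncertain.

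Levels were also summed over genes. The 81 nuclear members together had 8379, 8467 and 7667 CPM in senescent and 14470, 11626 and 10601 CPM in healthy libraries, 0.668 times the healthy mean and with the groups apart. By complex the senescent sums were 0.733 (I), 0.603 (II), 0.678 (III), 0.730 (IV) and 0.608 (V) times the healthy means, each apart. The 13 mitochondrial messages summed to 52051, 52624 and 63063 CPM in senescent and 63434, 49952 and 61055 CPM in healthy libraries, 0.962 times the mean with overlapping groups. They took 5.85%, 5.61% and 7.26% of all counts in senescent and 5.66%, 4.46% and 5.55% in healthy libraries. Counts from the mitochondrial genome were 6.21, 6.22 and 8.23 times those of the nuclear members in senescent libraries and 4.38, 4.30 and 5.76 times in healthy ones. This ratio does not depend on the scaling of the libraries, and its groups were apart.

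**Figure D4:**
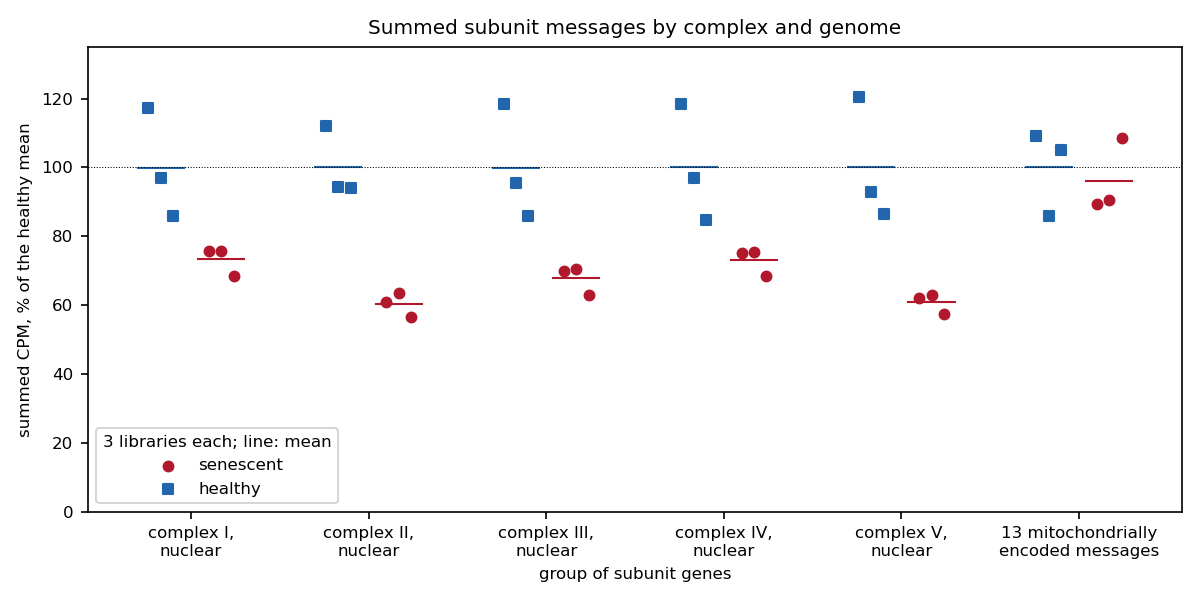
Summed CPM of the nuclear members of each complex and of the 13 mitochondrially encoded messages (percent of the healthy mean, vertical axis) in each senescent (red circles) and healthy (blue squares) library, lines at the means. The nuclear sums of all 5 complexes are lower in every senescent library, and the mitochondrial sums overlap.

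**Figure D5:**
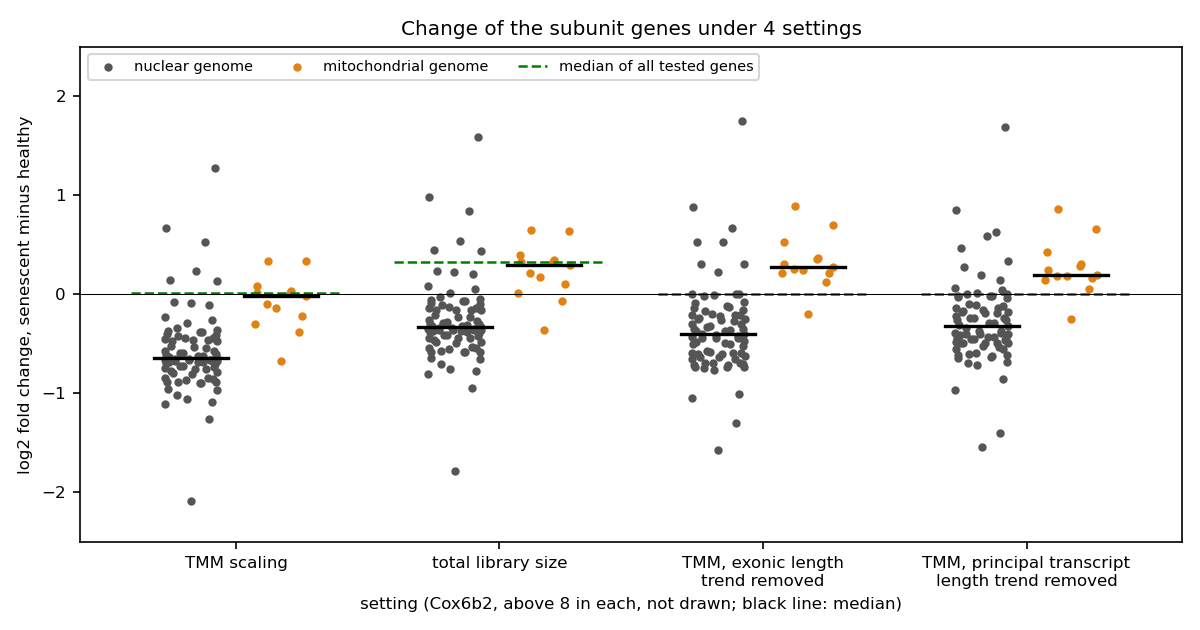
Log2 fold change (senescent minus healthy, vertical axis) of the 81 nuclear (grey, without Cox6b2) and 13 mitochondrially encoded (orange) members under TMM scaling, total library size and removal of either of 2 length trends, with black lines at their medians and a dashed line at the median of all tested genes. The nuclear median is -0.64, -0.33, -0.40 and -0.32 in turn, and the mitochondrial one -0.01, 0.30, 0.28 and 0.20.

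Genes that build or feed the complexes were read in lists of their own, beside the 20.7% of all tested genes that fell and the 20.4% that rose. Of 52 tested assembly factors, 20 fell (38.5%) and 1 rose (1.92%), with a median of -0.31. Ndufaf6 (-1.31, adjusted p = 0.0017) and Ndufaf4 (-0.87, adjusted p = 0.0012), which help assemble complex I, fell. Tmem70, an assembly factor of the ATP synthase, rose from 34.2 ± 0.82 to 49.7 ± 3.98 CPM (adjusted p = 0.0051). Of 22 genes for ubiquinone, cytochrome c and other entries of electrons, 9 fell (40.9%) and 2 rose (9.09%), with a median of -0.30. Coq9 (-0.95, adjusted p = 8.6e-04), of ubiquinone synthesis, and Prodh, proline dehydrogenase (-1.82, adjusted p = 1.3e-04), fell, whereas Coq2 (0.72, adjusted p = 0.0027) and Coq7 (0.55, adjusted p = 0.028), which also act in ubiquinone synthesis, rose. Coq7 was no longer called when replicate 2 or 3 was left out, whether of the senescent (0.59 in both fits) or the healthy group (0.44 and 0.48).

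Of 24 genes of the citric acid cycle and pyruvate entry, 14 fell (58.3%, against 20.7% of all tested genes) and none rose (against 20.4%). Their median was -0.49. The 2 with the smallest p, Pdk2 (-2.25, adjusted p = 2e-05) and Pdk1 (-1.78, adjusted p = 1.1e-04), encode kinases that inhibit pyruvate dehydrogenase rather than enzymes of the cycle. Of 7 carriers of phosphate, nucleotides and protons, none fell and 1 rose (14.3%), with a median of -0.12. The riser was Ucp2 (0.45, adjusted p = 0.04). Ucp2 was no longer called when replicate 1 or 3 was left out, whether senescent (0.42 and 0.48) or healthy (0.48 and 0.31). Among 27 genes of mitochondrial transcription, replication and RNA processing, 11 fell (40.7%) and 1 rose (3.7%), with a median of -0.32. 1110008L16Rik, the gene of the mitochondrial RNase P nuclease PRORP, fell by 1.24 (adjusted p = 3.4e-04), and Hsd17b10, another RNase P subunit, fell by 0.98 (adjusted p = 0.001). Top1mt, the mitochondrial topoisomerase, rose by 0.94 (adjusted p = 3.9e-04).

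Of 14 nuclear regulators of mitochondrial genes, 4 rose (28.6%, against 20.4% of all tested genes) and 3 fell (21.4%, against 20.7%). Their median was 0.12. Nfe2l2, the gene of the stress factor NRF2, rose from 51.1 ± 2.84 to 190.2 ± 20.7 CPM (adjusted p = 1.7e-05), and Gabpb1, a subunit of an ETS-type factor, rose by 1.09 (adjusted p = 5.4e-04). The coactivator gene Ppargc1b fell from 2.71 ± 0.626 to 0.544 ± 0.115 CPM (adjusted p = 7e-04), and Esrrg fell by 1.40 (adjusted p = 0.0091). The remaining 3 called regulators were named after their values were seen. Esrra rose by 1.56 (adjusted p = 0.0026) and Nrf1 by 0.48 (adjusted p = 0.02), the latter not with the exonic length trend removed (0.24, adjusted p = 0.2). Ppargc1a, the coactivator known to drive mitochondrial biogenesis, had 1.73, 6.09 and 2.14 CPM in senescent and 10.1, 13.5 and 9.65 CPM in healthy libraries (-1.74, adjusted p = 0.013). Without senescent replicate 3, Nrf1 (0.47) and Ppargc1a (-1.47) missed the threshold. Of 19 genes of mitochondrial protein quality control and stress, 7 fell (36.8%) and 2 rose (10.5%), with a median of -0.20. Trap1 (-0.74, adjusted p = 0.0013), a mitochondrial chaperone, and Atf5 (-1.02, adjusted p = 9.2e-04) fell, and the stress hormone Gdf15 (3.02, adjusted p = 1.1e-06) and the protease Oma1 (0.58, adjusted p = 0.0041) rose.

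Markers of cell types were counted in the same fit, in which 20.4% of all tested genes rose and 20.7% fell. No marker list was tested against these shares. Of 12 hepatocyte markers 7 fell and 1 rose, and their sum was 0.608 times the healthy mean. Most of that sum was Alb, with means of 51520 CPM in senescent and 90316 CPM in healthy libraries (0.570 times). Cyp3a11 was the marker that rose (1.87 times). Apob (1.21 times), Cps1 (1.10), Pck1 (1.05) and Hnf4a (1.01) were not called. Of 12 macrophage markers 3 rose, with sums of 206.3 to 397.3 CPM in senescent and 78.6 to 221.6 CPM in healthy libraries. Of 10 tested stellate cell and fibroblast markers 5 rose, with sums of 25.3 to 39.3 against 9.74 to 16.5 CPM, and 1 of 9 endothelial markers rose (107.0 to 140.6 against 97.8 to 122.7 CPM). Both tested neutrophil markers rose (2.19 to 2.87 against 0.156 to 0.910 CPM), while no erythroid marker of 5 was called (11.5 to 18.7 against 11.3 to 12.1 CPM). Of 4 tested cholangiocyte markers 1 rose and 1 fell (11.9 to 16.9 against 13.8 to 19.6 CPM). No lymphocyte marker had enough counts to be tested (sums under 1 CPM in every library), and none of these lists had a member at 0 in all libraries. The part of other cell types in the changes of the subunit genes was not tested.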

How the data were processed

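Values are gene counts of 6 libraries, deposited by the authors as one unnormalised table. The submitters' processing notes name STAR 2.7.1a and featureCounts on GRCm38, DESeq2 1.34.0, and for read quality cutadapt 1.16, FastQC and MultiQC 1.3. Per the labels' protocols, 500 ng of RNA entered a stranded kit with poly(A) selection and 10 PCR cycles. The sources used here do not give the annotation release or strand setting, so overlapping genes and close copies are uncertain. Of the rows, 0 name no gene. Symbols, coordinates and lengths come from GENCODE M21 on GRCm38 (99.7% of IDs matched), promoter sequences from RefSeq.

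Counts were tested with edgeR 4.0.16 in R 4.3.3 (quasi-likelihood F test, two-sided, filterByExpr with minimum count 10 and total 15, TMM, no covariate), adjusted by Benjamini-Hochberg over 12949 genes. The SE is the log2 fold change over the square root of F. The fit was tested on simulated data. An exact permutation test of 3 against 3 libraries cannot go below p = 0.1, so none was used. No library looked like a copy of another: chi-square over degrees of freedom was 49.5 or more in every pair within a group. The members, lists, complexes and roles were chosen with earlier results of these data known. Genes named by rule include those called with the smallest p in each complex (up to 3 a direction). The rule also names the tissue forms, the 5 most abundant, Mdm2 and Cdkn1a, and from each list the 2 risen and 2 fallen with the smallest p. Some of these are given by library, others as fold changes or group means. Other genes are named by range or role. Cdkn1a went from 35.6 ± 16.98 to 716.8 ± 60.04 CPM (n = 3, edgeR adjusted p = 4.4e-05). Lists are described by counts and medians, with no set test. Alternatives were DESeq2 1.42.0, limma-voom (limma 3.58.1), scaling by total library size or by size factors as in DESeq2, other filters, leaving out mitochondrial or the 50 most abundant genes, trends on exonic length and GC content, a replicate block, an adjusted p under 0.01 and each library left out; the trend on principal transcript length was chosen after seeing the data.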

Additional observations from a re-analysis of the deposited data

How the results depend on the processing

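The count of falling members was 59 to 65 with DESeq2 (62), limma-voom (59), size factors as in DESeq2, other filters, removal of abundant or mitochondrial genes, a GC trend removed and the replicate block, and 3 rose in each. Total library size gave 30 falling and 6 rising members with a median of -0.291, and 4861 higher and 1285 lower genes in all. The exonic length trend gave 43 falling and 5 rising (median -0.323), the principal transcript length trend 40 and 6 (median -0.245). Of all tested genes 19.5% fell in both fits, and 19.4% and 19.7% rose in turn. Over fits that each left out one library, 41 to 67 members fell, 3 to 4 rose and the median was -0.688 to -0.449; without senescent replicate 3, 1489 genes fell in all, at most 2789 without healthy replicate 3. At an adjusted p under 0.01, 1570 genes rose and 1498 fell.

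Signs turned for several members, of which Cox8a (-0.47 as reported) had been called lower, and the values below are examples. Ndufa13, Ndufb7, Ndufs4, mt-Nd1 and mt-Nd3 also turned positive in alternative fits. As reported 74 of the 81 nuclear members were negative, and with the principal length trend removed 66 were. With total library size, the exonic and the principal length trend in turn, mt-Atp6 stood at 0.173, 0.308 and 0.25, Cox7a2 at 0.235, 0.302 and 0.333, mt-Co3 at 0.012, 0.12 and 0.056, mt-Cytb at 0.211, 0.22 and 0.149, and mt-Co2 at 0.101, 0.241 and 0.182. Cox7a2l stood at 0.049 with total library size and 0.007 with the principal length trend, Cox8a at 0.004 with the exonic and Ndufa4 at 0.063 with the principal length trend. mt-Co1 stood at -0.113 with the GC trend, and with one library left out at -0.089 (without healthy replicate 2) to 0.094 (senescent replicate 2), with -0.047 without senescent replicate 3. Cox7a2 then stood at -0.214 (without healthy replicate 3) to 0.081 (healthy replicate 1), with 0.007 without senescent replicate 3. The cause was not tested.

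Same-numbered libraries correlated at 0.228, -0.174 and -0.043 in their deviations from the group means, and differently numbered ones at -0.329 to 0.38. With 3 libraries a group, these values cannot decide whether the numbers pair them. With the replicate block 65 members fell and 3 rose, with a median of -0.586, while 20.3% of all tested genes fell and 19.9% rose. With 3 libraries a group, and 10 counts of Cox6b2 in the healthy group, depth limits low members such as Cox7a1 and Ndufa4l2.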
